A study of Saccharomyces cerevisiae with 4 samples.

Results

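The 9 genes ICL1, MLS1, MDH2, FBP1, PCK1, ACS1, CIT2, IDP2 and ACH1 encode enzymes of the glyoxylate cycle, of gluconeogenesis and of acetyl-CoA supply in the budding yeast Saccharomyces cerevisiae. They were taken by gene symbol from the array's annotation, and all 9 were measured, each by 1 probe set, among 5449 genes tested. The series compared 2 wild type cultures with 2 cultures that carry dis3E729K, a missense allele of DIS3, the catalytic ribonuclease of the RNA exosome, on 4 Affymetrix arrays. The labels give BY4741, a laboratory strain of the a mating type, as the background of every culture, and in both genotypes a URA3 marker lay beside DIS3. Cells grew at 30 °C in synthetic medium that selects for the DIS3 allele, and 1 A600 unit of cells was collected in mid-log phase. Neither the clones behind the cultures nor the density or the glucose left at collection is given in the sources used here.

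Yeast that grows on glucose makes its biomass from glycolytic intermediates and keeps the genes of these enzymes repressed. When glucose runs out, the kinase Snf1 relieves the repressor Mig1 and activates the factors Cat8, Sip4 and Adr1, which turn the genes on. Acetyl-CoA made from ethanol or acetate then enters the glyoxylate cycle, which bypasses the decarboxylating steps of the tricarboxylic acid cycle and yields succinate and malate. Malate is oxidised to oxaloacetate, and gluconeogenesis carries it back to hexose phosphate.

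Values are log2 intensities after RMA, a normalization that gives all arrays nearly the same distribution, and a difference of 1 is a doubling of signal. Between arrays, the median of the genes tested lay between 10.27 and 10.29. A background level of 4.06 was set from probe sets of another yeast species on the same array, and each of the 9 genes lay above it on every array. DIS3 itself read 11.65 and 11.82 in wild type and 11.49 and 11.12 in dis3E729K. Whether its probe set covers the substitution was not examined, so these values are no check of the allele. Mating type genes and MET17 went against the strain label. Genes of a cells (6 of 6) were high on both replicate 1 arrays, at 10.18 to 12.997, and low on both replicate 2 arrays, at 4.49 to 8.27. Genes of alpha cells (5 of 5) showed the opposite, at 10.56 to 13.91 on the replicate 2 arrays and 3.51 to 9.37 on the replicate 1 arrays. MET17, deleted in BY4741, read 9.55 in wild type replicate 2 and 3.22 to 3.47 elsewhere. LEU2, also deleted there, read 4.26 to 4.58, and HIS3, which that strain carries in mutated form, read 10.49 to 11.57; URA3 read 10.89 to 11.38. Because the replicate 2 cultures go against the label, each difference is also given within the replicate 1 arrays and within the replicate 2 arrays. Control probe sets moved with genotype too: 17 of 17 for ribosomal RNA were higher in both mutant cultures (median 0.42 log2 units), and in 6 of 8 control genes the ratio of 5′ to 3′ signal was. The part of either in the differences below was not tested.

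The comparison of dis3E729K with wild type asks how transcript levels differ when the exosome's ribonuclease is altered. Of the 9 enzyme genes, 5 rose in dis3E729K, namely ICL1, MLS1, ACH1, MDH2 and CIT2, by 1.81-fold to 10.2-fold. ACS1, IDP2, FBP1 and PCK1 did not pass the test, with log2 differences of 2.08, 1.68, 1.47 and 0.58. In limma's test, with Benjamini-Hochberg adjustment over all 5449 genes and a threshold of 0.05, 7.71% of all genes were called higher and 8.15% lower. None of the 9 was called lower. At an unadjusted p under 0.05, 7 of the 9 lay higher and 0 lower, against 18.1% and 22.6% of all genes. Both mutant arrays lay above both wild type arrays for 9 of 9, as for 32.3% of all genes. The log2 difference was at least 1 for 7 of 9, as for 8.37% of all genes. The median difference of the 9 was 1.74, and over all genes it was -0.07.

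**Figure D1:**
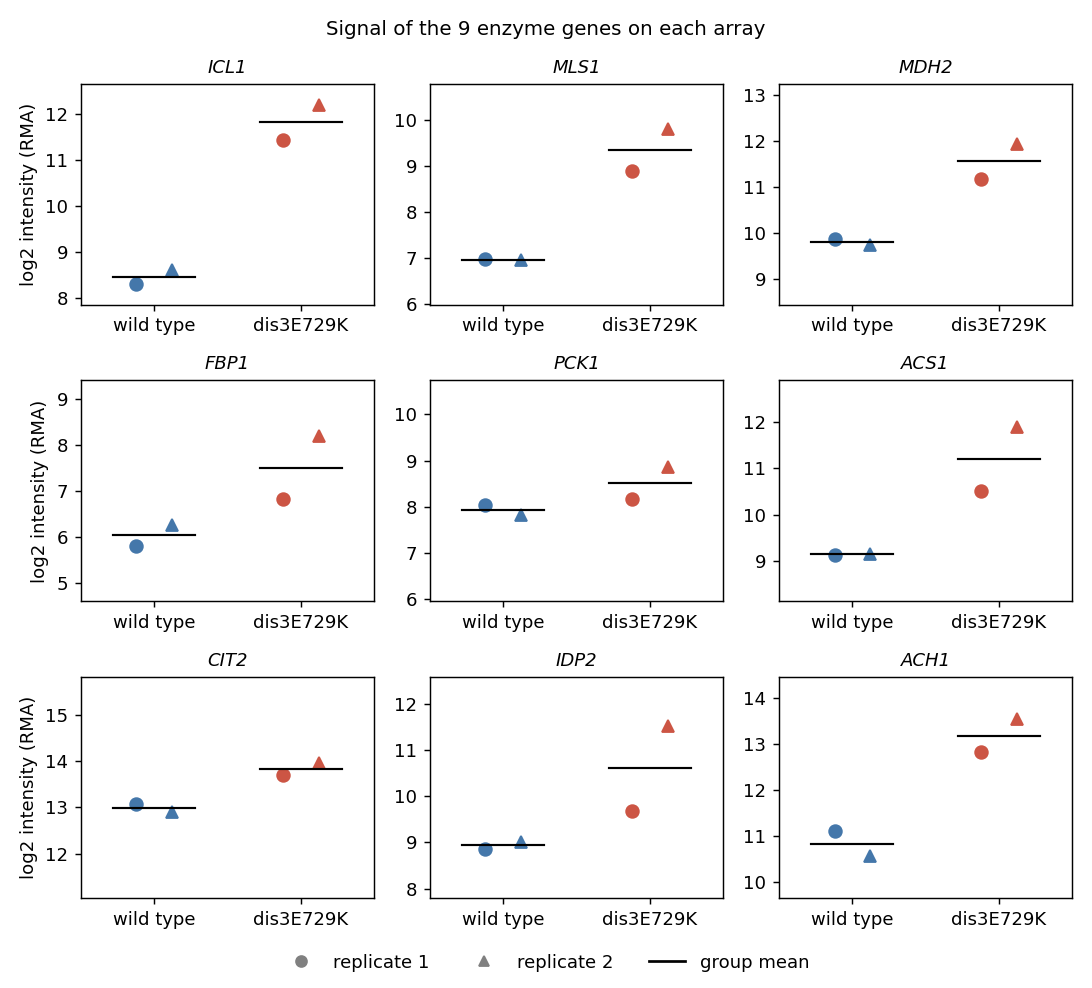
RMA log2 intensity (vertical axis, every panel spanning the same range of log2 units) of the 9 genes in wild type (blue) and dis3E729K (red); circles are replicate 1, triangles replicate 2 and lines the group means of 2 arrays. In each panel both mutant points lie above both wild type points, and the replicate 2 mutant point is the highest, as for ICL1 at 12.20.

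The glyoxylate cycle has 2 enzymes of its own. ICL1 (YER065C) encodes isocitrate lyase, which splits isocitrate into glyoxylate and succinate. Its signal was 8.32 and 8.61 in the wild type replicates 1 and 2, and 11.43 and 12.20 in the mutant replicates 1 and 2. The mutant arrays were far above the wild type arrays, with 2.82 log2 units between the nearest of them. ICL1 rose by 3.35 ± 0.31 (moderated SE, n = 2 each; 95% interval 2.52 to 4.18; limma adjusted p = 0.0335), a 10.2-fold difference that ranked 22 among all genes tested. MLS1 (YNL117W) encodes malate synthase, which joins glyoxylate and acetyl-CoA to malate. It read 6.97 and 6.96 in wild type, and 8.89 and 9.81 in the mutant. The wild type cultures were nearly alike, and the mutant cultures were apart by 0.91. MLS1 rose by 2.39 ± 0.34 (SE; 95% interval 1.47 to 3.31; limma adjusted p = 0.0352), 5.24-fold.

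The next step and the 2 enzymes of gluconeogenesis proper had smaller mean differences. Those of MLS1 and MDH2 lay closer to each other than the mutant cultures did for either gene. MDH2 (YOL126C), the cytosolic malate dehydrogenase that makes oxaloacetate, read 9.88 and 9.76 in wild type and 11.19 and 11.94 in dis3E729K. Both mutant values lay above both controls. MDH2 rose by 1.74 ± 0.29 (SE; 95% interval 0.96 to 2.53; limma adjusted p = 0.0399), 3.35-fold. PCK1 (YKR097W), the phosphoenolpyruvate carboxykinase that commits oxaloacetate to gluconeogenesis, read 8.04 and 7.82 in wild type and 8.17 and 8.86 in the mutant. The groups were separated by only 0.12, since mutant replicate 1 lay close to wild type replicate 1. Its difference of 0.58 ± 0.28 (SE; 95% interval -0.17 to 1.34) did not pass, with a limma adjusted p of 0.191. FBP1 (YLR377C), the fructose bisphosphatase of the last regulated step, read 5.82 and 6.27 in wild type and 6.82 and 8.20 in the mutant. The mutant cultures were 1.38 apart, more than the 0.55 between the groups. The difference of 1.47 ± 0.52 (SE; 95% interval 0.06 to 2.87) did not pass either, with a limma adjusted p of 0.114.

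Acetyl-CoA supply was represented by ACS1 and ACH1. ACS1 (YAL054C), the acetyl-CoA synthetase made in the absence of glucose, read 9.12 and 9.15 in wild type and 10.52 and 11.91 in dis3E729K. The mutant cultures were 1.39 apart and the wild type cultures 0.03, and the groups did not overlap. Its difference of 2.08 ± 0.49 (SE; 95% interval 0.73 to 3.43), 4.22-fold, did not pass, with a limma adjusted p of 0.0586. ACH1 (YBL015W) encodes a mitochondrial enzyme that transfers coenzyme A between succinyl-CoA and acetate. It read 11.11 and 10.56 in wild type and 12.82 and 13.55 in the mutant. Here the wild type cultures differed as well, in the other direction, with replicate 2 lower. ACH1 rose by 2.35 ± 0.34 (SE; 95% interval 1.44 to 3.27; limma adjusted p = 0.0357), 5.10-fold.

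CIT2 and IDP2 act on citrate and isocitrate outside mitochondria. CIT2 (YCR005C), the peroxisomal citrate synthase, is also the classic target of retrograde signalling from mitochondria to the nucleus. It was bright in every culture, at 13.08 and 12.89 in wild type and 13.71 and 13.97 in dis3E729K. Differences of such bright probe sets may be compressed on arrays, which was not measured. CIT2 rose by 0.85 ± 0.16 (SE; 95% interval 0.42 to 1.29; limma adjusted p = 0.0436), 1.81-fold, the smallest rise of the 5. IDP2 (YLR174W), the cytosolic isocitrate dehydrogenase that makes NADPH, read 8.85 and 9.02 in wild type and 9.69 and 11.53 in the mutant. Its mutant cultures were 1.84 apart, the widest gap of the 9. The difference of 1.68 ± 0.65 (SE; 95% interval -0.09 to 3.44) did not pass, with a limma adjusted p of 0.134.

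**Figure D2:**
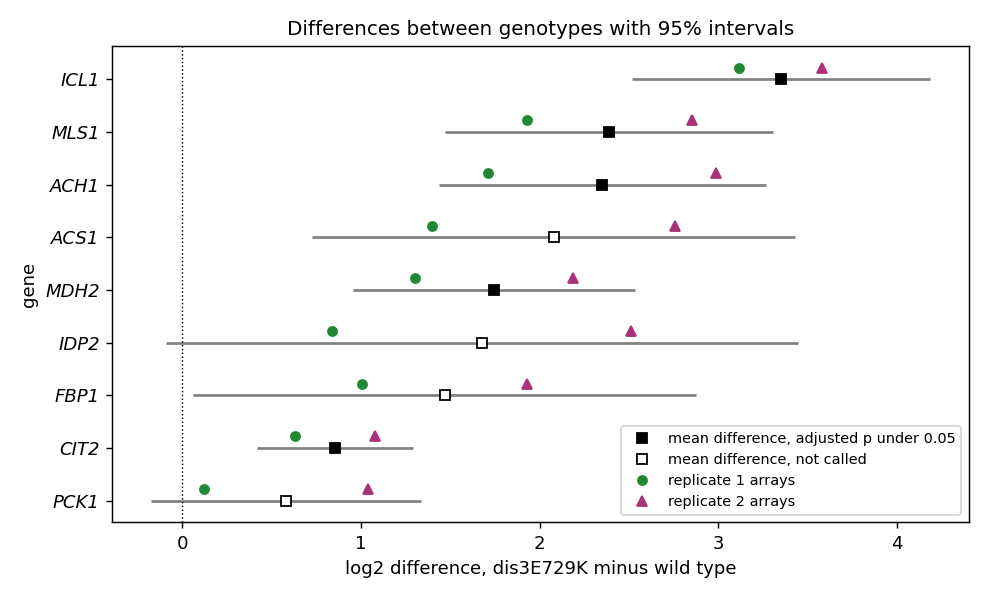
Log2 difference, dis3E729K minus wild type (horizontal axis), of each gene: squares are the mean difference with its 95% interval from limma, filled where the adjusted p was under 0.05, circles the replicate 1 arrays and triangles the replicate 2 arrays. Every pair lies above 0, from 0.12 for PCK1 to 3.58 for ICL1, and each triangle lies to the right of its circle.

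The 9 genes differed in size of change but shared an order of the cultures. Signal was higher in mutant replicate 2 than in mutant replicate 1 for 9 of 9, as for 45.2% of all genes. The gap between the mutant cultures was 0.26 to 1.84 log2 units, with a median of 0.76, while over all genes the median absolute gap was 0.21. Between the wild type cultures the absolute gap was 0.01 to 0.54 with a median of 0.19, against 0.14 over all genes, with replicate 2 the higher for some of the 9 and the lower for others. Within the replicate 1 arrays, whose mating type genes match the label, the difference was 3.11 for ICL1, 1.93 for MLS1, 1.71 for ACH1, 1.40 for ACS1, 1.30 for MDH2, 1.01 for FBP1, 0.84 for IDP2, 0.63 for CIT2 and 0.12 for PCK1. ICL1 thus led in cultures that carry the labelled mating type, and PCK1 was nearly level there. Within the replicate 2 arrays the difference was 3.58 for ICL1, 2.99 for ACH1, 2.85 for MLS1, 2.76 for ACS1, 2.51 for IDP2, 2.18 for MDH2, 1.93 for FBP1, 1.08 for CIT2 and 1.04 for PCK1. All 9 were higher in the mutant in both comparisons and more so in the replicate 2 arrays, a pattern that 25.4% of all genes showed. With 1 array on each side, these values have no test. The replicate 2 cultures also differed in MET17, which read 9.55 in wild type and 3.47 in dis3E729K. The part of that in the replicate 2 differences was not tested and cannot be told apart from genotype there. In the mean difference, several pairs of genes lay closer to each other than the mutant cultures did for either gene. MLS1 and ACH1, MLS1 and MDH2, and MDH2 and IDP2 are examples, and the order within such pairs is not resolved.

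The calls depended on which arrays were in the fit, among the 9 and over all genes. Without wild type replicate 1 limma called 2 of 9 higher, ICL1 and ACH1, with 3.01% of all genes; without wild type replicate 2 it called 0, with 0.165%, and 7 of the 9 and 12.3% of all genes were then higher at an unadjusted p under 0.05. Without dis3E729K replicate 1 it called 6, with 5.8% of all genes: ACS1 and IDP2 then passed and CIT2 did not. Without dis3E729K replicate 2 it called 0 of 9 and 0 of all genes, with 7 of the 9 and 12.7% of all genes higher at an unadjusted p under 0.05. In these fits the lone culture of a genotype is assumed to vary like the pair of the other. All 9 directions held in these fits, with differences of 2.97 to 3.73 for ICL1, 0.76 to 2.59 for IDP2, 0.78 to 2.16 for FBP1 and 0.23 to 0.93 for PCK1. The call for CIT2 was also lost with the replicate number, and so the mating type pattern, as a term in the fit (adjusted p = 0.0796), while ICL1, MLS1, MDH2 and ACH1 passed, as did 3.65% of all genes in the same direction.

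Most of these enzymes have paralogues that work in another compartment or on another substrate, and most of those differed less. Of 9 paralogues 2 rose and 0 fell, beside 7.71% and 8.15% of all genes. The 2 were citrate synthases. CIT1, the mitochondrial enzyme, rose by 1.03 ± 0.18 (SE, limma adjusted p = 0.0413). CIT3, a mitochondrial citrate and methylcitrate synthase, rose by 2.48 ± 0.37 (limma adjusted p = 0.0364). Without dis3E729K replicate 2 or without wild type replicate 2 limma called 0 of the 9 paralogues, with 2 and 3 higher at an unadjusted p under 0.05. With either of the other arrays left out, or with the replicate number as a term, it called CIT3 alone (for CIT1, adjusted p = 0.0654 with that term). The median difference of the paralogues was 0.30. CIT3 read 6.48 and 6.03 in wild type and 8.28 and 9.20 in the mutant, and so changed by more than its peroxisomal counterpart CIT2. For the other families the relation ran the other way. ICL2, a mitochondrial methylisocitrate lyase, read 8.90 and 9.43 in wild type and 9.06 and 9.58 in the mutant, and the groups overlapped. DAL7, the malate synthase of allantoin breakdown, read 9.31 and 9.28 in wild type and 9.16 and 9.25 in the mutant, a difference of -0.09 ± 0.12. ACS2, the acetyl-CoA synthetase needed on glucose, read 13.02 and 12.97 against 12.93 and 12.74, a difference of -0.16 ± 0.13. Neither DAL7 nor ACS2 passed.

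IDP1, the mitochondrial isocitrate dehydrogenase, differed by -0.28 ± 0.12 and IDP3, the peroxisomal one, by 0.79 ± 0.23 (SE), and neither passed. MDH1 and MDH3, the mitochondrial and peroxisomal malate dehydrogenases, differed by 0.85 ± 0.22 and 0.30 ± 0.14 and did not pass. The difference between an enzyme's change and its paralogue's change was 3.19 log2 units for ICL1 over ICL2, 2.48 for MLS1 over DAL7, 2.24 for ACS1 over ACS2, 1.96 for IDP2 over IDP1 and 1.45 for MDH2 over MDH3. It was 0.90 for MDH2 over MDH1 and 0.89 for IDP2 over IDP3, and it was -0.17 for CIT2 over CIT1 and -1.63 for CIT2 over CIT3. In 8 of 9 such pairs the mutant arrays and the wild type arrays did not overlap in this quantity, IDP2 over IDP3 being the exception. The mutant arrays were lower for CIT2 over CIT1 and CIT2 over CIT3, and higher for the rest of the 8. Among the 5449 single genes, both mutant arrays lay above both wild type arrays for 1762 and below both for 2278. Non-overlap alone therefore does not set these 8 pairs apart. An exact permutation test over the 4 arrays gave a p of 0.333, counting both tails, for these 8, the smallest it can give, and 0.667 for IDP2 over IDP3 (adjusted over 9 pairs, p = 0.375 and 0.667). A test with this floor cannot reach 0.05, so it says nothing for or against these differences.

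**Figure D3:**
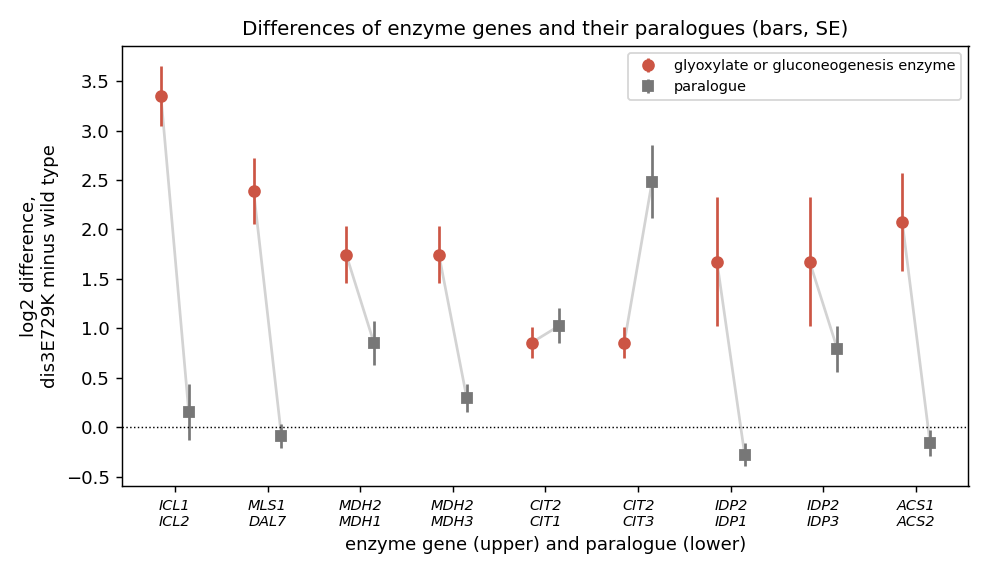
Log2 difference, dis3E729K minus wild type (vertical axis), of 6 of the enzyme genes (circles) beside their paralogues (squares), with moderated SE as bars; MDH2, CIT2 and IDP2 appear with each of their paralogues. ICL1, MLS1, MDH2, IDP2 and ACS1 lie above their paralogues, and CIT2 lies below CIT1 and CIT3.

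The route from oxaloacetate to hexose shares most steps with glycolysis, and those genes had small differences, all above 0. Of 12 measured genes for shared steps, aconitase and the pyruvate carboxylases, limma called 0, beside 7.71% of all genes called higher and 8.15% lower. Before adjustment, 2 lay higher and 0 lower at p under 0.05, beside 18.1% and 22.6% of all genes. The median difference was 0.18. Both mutant arrays lay above both wild type arrays for 10 of the 12, as for 32.3% of all genes. ENO1, one of the enolases, differed by 0.60 ± 0.15 (SE; limma adjusted p = 0.0657), TDH1, a glyceraldehyde phosphate dehydrogenase, by 0.54 ± 0.17, and PYC1, a pyruvate carboxylase, by 0.75 ± 0.31. ACO1, the aconitase that feeds isocitrate to the cycle, differed by 0.02 ± 0.19, with overlapping groups. Several of these genes read above 14 on every array, where compression may hide differences, which was not measured. No probe set was tied to TDH2.

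Of 10 genes for the one-way steps of glycolysis and for fructose bisphosphate signalling, 4 rose and 0 fell (unadjusted p under 0.05: 4 higher, 0 lower), and the median difference was 0.41. Over all genes, limma called 7.71% higher, and 18.1% lay higher at an unadjusted p under 0.05. HXK1, a hexokinase repressed by glucose, rose by 2.43 ± 0.25 (SE; limma adjusted p = 0.0335), and GLK1, the glucokinase, by 1.83 ± 0.18. PYK2, the pyruvate kinase repressed by glucose, rose by 2.27 ± 0.27, from 8.87 and 9.44 to 11.21 and 11.63. FBP26, which removes an activator of phosphofructokinase and inhibitor of Fbp1, rose by 1.69 ± 0.27. Enzymes that run against gluconeogenesis on glucose did not pass: PFK1 and PFK2, the phosphofructokinase subunits, differed by 0.07 ± 0.13 and 0.10 ± 0.13, CDC19, the main pyruvate kinase, by 0.12 ± 0.12 and HXK2 by 0.22 ± 0.13. Limma called 0 of the 10 without wild type replicate 2 or without dis3E729K replicate 2, with 4 higher at an unadjusted p under 0.05 in each case; FBP26 also lost its call without wild type replicate 1, and PYK2 without dis3E729K replicate 1.

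Substrate carriers and the carnitine shuttle, which moves acetyl units between compartments, included 3 rises larger than that of ICL1. Of 12 genes 5 rose and 0 fell, beside 7.71% and 8.15% of all genes. At an unadjusted p under 0.05, 6 lay higher and 1 lower, beside 18.1% and 22.6% of all genes. The median difference was 1.62, or 1.00 without dis3E729K replicate 2. ADY2, SFC1 and JEN1, carriers of acetate, of succinate and fumarate, and of lactate, rose by 5.13, 4.15 and 3.93. CRC1, the mitochondrial carnitine carrier, rose from 6.83 and 7.29 to 9.61 and 10.47, by 2.97 ± 0.36 (SE; limma adjusted p = 0.0337), and YAT2, a carnitine acetyltransferase, by 2.67 ± 0.38. The other carnitine acetyltransferases, CAT2 and YAT1, differed by 1.91 ± 0.48 and 1.33 ± 0.53 and did not pass; YAT1 passed with the replicate number as a term (adjusted p = 0.0416). DIC1, the mitochondrial dicarboxylate carrier, differed by -0.57 ± 0.13, also without passing. Among 10 genes that bring ethanol, acetaldehyde, lactate or glycerol into the route, ALD4, the mitochondrial aldehyde dehydrogenase, rose by 2.04 ± 0.26 and the others did not pass (unadjusted p under 0.05: 4 higher, 1 lower). This 1 call of 10 is near the 7.71% of all genes called higher. The median difference of the entry genes was 0.80, but 0.17 without dis3E729K replicate 2, 0.50 without wild type replicate 2 and 1.29 without dis3E729K replicate 1. ADH2, the alcohol dehydrogenase that consumes ethanol, read 6.89 and 6.67 in wild type and 7.76 and 8.46 in the mutant, a difference of 1.33 ± 0.28 with an adjusted p of 0.0503. GUT2, the mitochondrial glycerol phosphate dehydrogenase, differed by 1.63 ± 0.48 and ALD5, another aldehyde dehydrogenase, by -0.61 ± 0.17, neither of which passed. Without wild type replicate 1 YAT2 lost its call, and without dis3E729K replicate 1 CAT2 gained one, as did ADH2 and GUT2, which made 3 calls among the 10 entry genes. Without wild type replicate 2 or without dis3E729K replicate 2, it called 0 genes of either list; 7 and 6 carriers and 4 and 3 entry genes were then higher, and 0 and 1 carriers and 0 entry genes lower, at an unadjusted p under 0.05.

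Among regulators of glucose repression, genes for activators and for repressors passed, though with the replicate number as a term only HAP4 and SIP4 did. The fit with that term called 3.65% of all genes higher. Without the term, 7 of 19 genes rose and 0 fell, beside 7.71% and 8.15% of all genes. At an unadjusted p under 0.05, 11 lay higher and 0 lower, beside 18.1% and 22.6% of all genes, and the median of the 19 was 0.77. HAP4, the activating subunit of the factor for respiratory genes, rose by 1.94 ± 0.13 (SE; limma adjusted p = 0.0335), and HAP2 and HAP5 of the same complex by 1.36 ± 0.21 and 0.93 ± 0.16. SNF1, the kinase, rose by 0.72 ± 0.13 and its subunit gene SIP2 by 1.47 ± 0.26. MIG1, the repressor, rose by 0.93 ± 0.19 and its relative MIG3 by 1.30 ± 0.23. CAT8, the activator of gluconeogenic genes, read 7.05 and 7.34 in wild type and 8.45 and 10.35 in the mutant. SIP4, another activator that binds the same promoter element, read 5.60 and 6.41 in wild type and 7.92 and 9.31 in the mutant. Neither passed, with differences of 2.20 ± 0.67 (adjusted p = 0.0879) and 2.61 ± 0.57 (adjusted p = 0.0523); for both, as for the enzymes, mutant replicate 2 was highest. ADR1, the activator of ADH2 and of peroxisomal genes, differed by 0.77 ± 0.47 with overlapping groups. Without wild type replicate 1 limma called HAP4 alone, and without dis3E729K replicate 1 CAT8, HAP4 and HAP5. It called 0 of the 19 without wild type replicate 2 or dis3E729K replicate 2, with 9 and 11 higher at an unadjusted p under 0.05.

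Genes set by external glucose were read beside the enzymes, since the medium's glucose at collection is not given. Of 9 measured genes, limma called MTH1, a corepressor of hexose transporter genes, which rose by 2.72 ± 0.18 (SE; adjusted p = 0.0335). By unadjusted p under 0.05, 4 lay higher and 0 lower, beside 18.1% and 22.6% of all genes. The median difference was 0.81, or 1.71 without dis3E729K replicate 1. This 1 call of 9 is near the 7.71% of all genes called higher. HXT1, the transporter induced by high glucose, read 12.08 and 12.22 in wild type and 12.84 and 12.36 in the mutant. HXT2 and HXT4, induced by low glucose, were lowest in wild type replicate 1: HXT2 read 10.38 and 12.24 in wild type and 12.73 and 13.34 in the mutant. HXT4 read 10.998 and 12.02 in wild type and 12.80 and 13.22 in the mutant, a difference of 1.499 ± 0.40 that did not pass. HXT7, whose probe set is marked as shared with other transcripts, differed by 1.58 ± 0.49, and SUC2, invertase, by 0.81 ± 0.25; neither passed. HXT5, a transporter of slowly growing cells, was high in wild type replicate 1 and mutant replicate 2, at 10.71 and 10.62, and low in the other cultures, at 6.55 and 7.11. The part of glucose supply or growth stage in the differences of the 9 enzyme genes was not tested. Leaving out wild type replicate 2 or dis3E729K replicate 2 left limma with 0 calls among the 9 glucose-set genes, with 6 and 2 higher at an unadjusted p under 0.05.

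Among 9 genes of retrograde signalling and its targets other than CIT2, LST8, a subunit of the TOR complexes that acts on the pathway, rose by 0.71 ± 0.13 (SE; limma adjusted p = 0.0426), a call lost with the replicate number as a term (adjusted p = 0.0909). This 1 call of 9 is near the 7.71% of all genes called higher. Of the rest, RTG genes and metabolic targets included, none passed. By unadjusted p under 0.05, 3 of the 9 lay higher and 1 lower, beside 18.1% and 22.6% of all genes. The median was 0.39, or 0.61 without wild type replicate 1. RTG1, RTG2 and RTG3, which activate CIT2, differed by 0.20 ± 0.13, 0.31 ± 0.12 and 0.39 ± 0.30 and did not pass. IDH1, a subunit of the mitochondrial isocitrate dehydrogenase, differed by 0.85 ± 0.22 and GRR1, a ubiquitin ligase subunit, by -0.55 ± 0.12 (adjusted p = 0.0518), also without passing. With any single array left out, limma called 0 of the 9 (unadjusted p under 0.05: 1 to 4 higher, 0 to 1 lower).

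Genes of the GID ubiquitin ligase, which marks Fbp1, Pck1, Icl1 and Mdh2 proteins for breakdown when glucose returns, were measured alongside the enzymes. Of 8 measured subunits and partners 5 rose and 0 fell, beside 7.71% and 8.15% of all genes. At an unadjusted p under 0.05, 7 lay higher and 0 lower, beside 18.1% and 22.6% of all genes. The median difference was 1.63. RMD5 and FYV10, the catalytic RING subunits, rose by 1.83 ± 0.17 and 2.00 ± 0.24 (SE; limma adjusted p = 0.0335 and 0.0337). RMD5 read 8.63 and 8.48 in wild type and 10.22 and 10.56 in the mutant. VID24, the receptor that binds the substrates, rose by 1.82 ± 0.26, from 9.98 and 9.49 to 11.33 and 11.78. The scaffold subunits VID30 and GID8 rose by 1.43 ± 0.21 and 1.28 ± 0.19, and VID30 lost its call with the replicate number as a term (adjusted p = 0.0516). UBC8, the ubiquitin-conjugating enzyme of the complex, differed by 1.82 ± 0.39 (adjusted p = 0.0507), VID28 by 0.91 ± 0.33 and GID7 by 0.59 ± 0.24, none of which passed. Both mutant arrays lay above both wild type arrays for 8 of 8, as for 32.3% of all genes. Mutant replicate 2 lay above mutant replicate 1 for each of the 8, as for 45.2% of all genes. Within the replicate 1 and the replicate 2 arrays the list's median was 1.14 and 1.93. Limma called 0 of the 8 without wild type replicate 2 or dis3E729K replicate 2, with 6 and 5 higher at an unadjusted p under 0.05. VID30 and GID8 also lost their calls, and UBC8 gained one, without wild type replicate 1, and VID24 lost its call without dis3E729K replicate 1. No probe set was tied to GID10 or GID11.

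**Figure D4:**
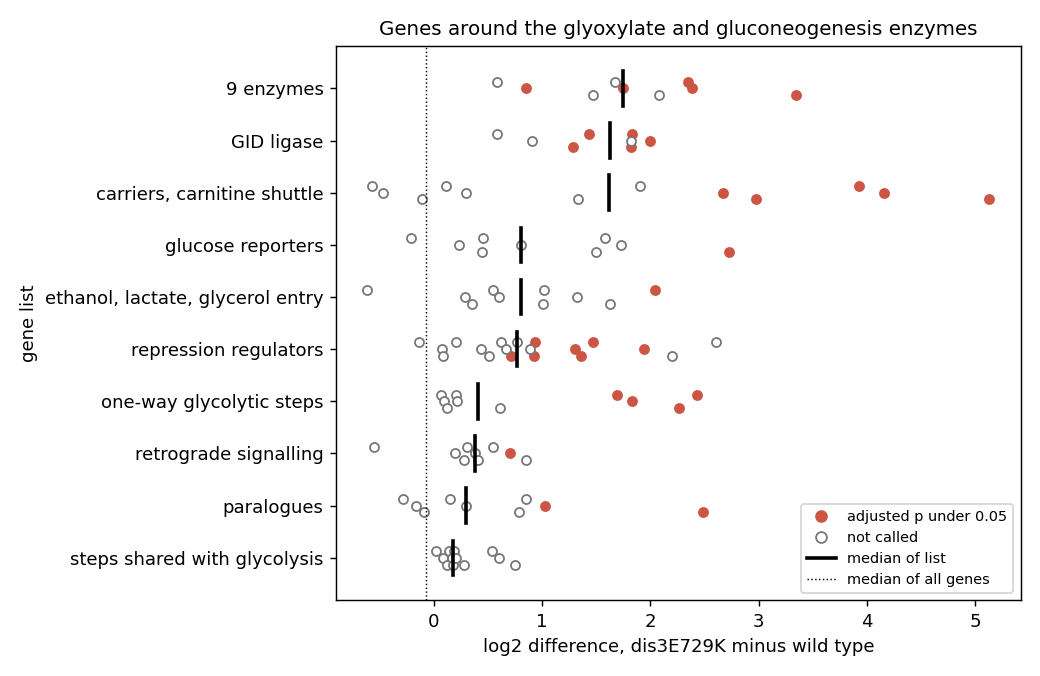
Log2 difference, dis3E729K minus wild type (horizontal axis), of each measured gene in 10 lists; red points had an adjusted p under 0.05 in limma's test, open points did not, bars are list medians and the dotted line is the median of all genes, -0.07. The 9 enzymes, the GID ligase and the carriers have the highest medians, at 1.74, 1.63 and 1.62, and the steps shared with glycolysis the lowest, at 0.18. With each array left out in turn, the 3 highest medians ranged from 1.37 to 2.59, 1.33 to 1.83 and 1.00 to 2.24. That of the glucose reporters ranged from 0.69 to 1.71.

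Other genes followed the cultures in much the same way. The median profile of the 9, with each gene centred on its own mean over the 4 arrays, was compared with every other gene by Euclidean distance. The 5 nearest were CAT2, at a distance of 0.13 log2 units, UTR5 at 0.21, RRT8 and MRS4 at 0.29 and GUT2 at 0.30. CAT2 read 8.14 and 8.22 in wild type and 9.42 and 10.77 in the mutant. UTR5 lay near background in wild type, at 4.31 and 4.51. Of the enzymes themselves, ACS1 was nearest to the median profile, at 0.25, and ICL1 and PCK1 were farthest, at 1.53 and 1.34. With 4 arrays many genes can share a profile, and the distances have no test.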

How the data were processed

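Total RNA of 4 cultures was amplified, labelled with biotin and hybridised to 1-colour arrays, per the labels' protocols. The authors deposited log2 intensities, 1 per probe set and array, made with RMA in Expression Console per the submitters' processing notes, which also name Transcriptome Analysis Console and give no versions. RMA equalises the arrays' distributions, so a global change of mRNA per cell cannot be seen. Of 10928 probe sets, 5498 were tied to 1 S. cerevisiae gene through the platform annotation and RefSeq identifiers; the brightest per gene over all 4 arrays was kept, which left 5449 genes. Background was the 95th percentile of the 1746 probe sets of another species. No sequences or coordinates are given.

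Groups came from the sample titles. Genotypes were compared in limma (version 3.58.1, R 4.3.3) by lmFit and eBayes, with no filter on dim genes, Benjamini-Hochberg adjustment over 5449 genes and a threshold of 0.05; there were 2 residual and 2.18 prior degrees of freedom. The procedure was tested on simulated data. Tables and plots used Python 3.11.15 (pandas 2.3.3, matplotlib 3.10.9). With 2 cultures per group, p-values rest on the spread between these cultures, moderated toward the spread over all genes. The labels call the cultures biological replicates, though those of each genotype differed in mating type genes. The number of arrays limits the precision.

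The members, lists and rule for named genes were chosen with earlier results of these data known. The rule named the 9 genes, their paralogues, every called gene and up to 3 leading genes of each list, CAT8, SIP4, ADR1, MIG1, HXT1, HXT2, DIS3 and the 5 nearest profiles. ACO1, PFK1, PFK2, CDC19, HXK2, YAT1, DIC1, HXT5, SUC2, RTG1, RTG2, RTG3, UBC8, VID28 and GID7 were chosen after their values were seen, and mating type and strain genes served as checks. Alternatives were other eBayes settings, scalings, probe set choices, filters and thresholds, the replicate number as a block, and each array left out.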

Additional observations from a re-analysis of the deposited data

How the results depend on the processing

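Across the 4 fits that left out 1 array, the number of genes called ranged from 0 to 667 (864 with all arrays), of the 9 enzyme genes from 0 to 6 (5 with all), of carriers from 0 to 6, of GID ligase genes from 0 to 4, of one-way glycolytic genes from 0 to 3, of regulators from 0 to 3, of entry genes from 0 to 3, of paralogues from 0 to 1 and of glucose-set genes from 0 to 1; it was 0 in all 4 for retrograde genes and for steps shared with glycolysis. The titles number the replicates but do not say that a number marks a shared batch or day. Over genes, deviations from the group means of same-numbered arrays correlated at 0.08, and at -0.21 without the mating type genes. A fit with the replicate block called 343 genes (199 higher, 144 lower), 4 of the 9 enzyme genes, 1 paralogue, 6 carriers, 4 GID ligase genes, 2 regulators, SIP4 and HAP4, 0 retrograde genes (unadjusted p under 0.05: 2 higher, 1 lower) and 2 glucose-set genes, HXT4 and MTH1. Without variance moderation 2 genes were called in all, both lower, and 0 of the enzyme genes and of every other list; the adjusted p of the 5 called enzymes then lay between 0.171 and 0.190. At a threshold of 0.10, 1952 genes were called, 883 higher and 1069 lower. Among them were 4 paralogues, 2 shared steps, 4 entry genes, 11 regulators, 4 retrograde genes and 4 glucose-set genes, and ACS1 joined the called enzymes. Of these listed genes all were higher except 1 entry gene and 1 retrograde gene. An intensity trend gave 1 shared step and 2 entry genes; median centring, leaving out cross-hybridising probe sets, and adjusting over all probe sets except controls each gave 2 entry genes. No enzyme gene changed direction in any alternative. CIT2 lost its call under the block. The causes were not tested.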
